A study of Mus musculus with 9 samples.

Results

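Themis, a regulator of T cell receptor signalling, was set beside genes that mark lymphocytes in the liver of mice on a regular diet, on a high-fat diet and on that diet plus an extract of ginseng flower buds. The members were 9 listed genes, Themis, Cd3d, Cd3e, Cd3g, Cd4, Cd8a, Lck, Nkg7 and Gzmb, of which 8 were among the 22180 genes measured by a probe set with 1 gene symbol. Lck was not matched by symbol or gene identifier in the array's annotation table and has no value here. Each of the 8 had a single such probe set. Themis was chosen by its measured values, which were already known to be high in the high-fat diet arrays against the regular diet arrays. Its values in those 2 groups are therefore a description without a test, and the lymphocyte markers were added to set beside it.

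Liver RNA of C57BL/6 mice (written C56BL/6J in the strain entry) was measured on 9 whole-transcript microarrays, which carry probes along the whole transcript. The mice were 5 weeks old at the start, and the livers were taken after a night without food. There were 3 arrays for the regular diet (RD in the labels), 3 for the high-fat diet (HFD) and 3 for the high-fat diet with the extract (GFB, 500 mg/kg). Extract or vehicle was given by mouth every day for 12 weeks. Sex and diet composition are not given in the sources used here. Whether the arrays came from separate mice is not stated, so p-values measure only the spread between these samples, which may be technical. Values are on a log2 scale, so a difference of 1 is a doubling, and array medians ran from 4.34 to 4.38. The hepatocyte markers averaged 11.60 to 11.89 over the arrays, the highest of the cell type lists. The number of arrays limits the precision.

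The T cell receptor signals through the CD3 chains. After the receptor binds its ligand, the kinase LCK, held at the co-receptors CD4 and CD8, phosphorylates the CD3 chains and starts the cascade that activates the cell. THEMIS is an adaptor-like protein that binds GRB2 and acts on the SHP-1 phosphatase in this cascade, and it is needed for the maturation of T cells in the thymus. NKG7 and granzyme B belong to the cytotoxic granules of natural killer cells and killer T cells. The liver holds resident and recruited T cells, natural killer cells and Kupffer cells beside its hepatocytes.

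The start regions of Themis, the member whose level differed most between the groups, and of Cd3e, the CD3 chain gene set against it, are shown for orientation. Both are the 250 bases before an annotated start in RefSeq (GRCm38.p6), written 5′ to 3′ on the strand of the gene. The Themis window lies at chr10:28668110-28668359 on the + strand, before the first of 2 annotated starts, and the Cd3e window at chr9:45009612-45009861 on the - strand. Capitals mark any match on either strand to TGTGGT (the motif of RUNX factors), CAGGAA (the motif of ETS factors), AGATAA (the motif of GATA factors) or TATAAA (the TATA box).
Themis: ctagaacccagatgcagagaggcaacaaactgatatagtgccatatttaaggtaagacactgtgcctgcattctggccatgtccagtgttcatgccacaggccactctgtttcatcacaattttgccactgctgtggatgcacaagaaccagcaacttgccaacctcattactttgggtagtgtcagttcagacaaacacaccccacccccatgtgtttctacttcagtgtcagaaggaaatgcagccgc
Cd3e: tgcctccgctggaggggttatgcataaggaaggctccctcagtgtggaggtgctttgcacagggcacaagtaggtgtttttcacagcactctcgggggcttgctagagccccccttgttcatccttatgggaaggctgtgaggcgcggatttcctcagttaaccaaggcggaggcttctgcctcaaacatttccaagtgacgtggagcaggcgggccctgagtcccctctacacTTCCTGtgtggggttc
The Cd3e window held 1 match, to the ETS motif, close to the start and on the opposite strand, overlapping no other, and the Themis window held none. The ETS letters were found in 25.7% of the 32851 RefSeq windows of this length, the RUNX letters in 14%, the TATA box in 12.4% and the GATA letters in 9.99%. A match describes the letters only, and the lack of one says nothing about any factor.

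Themis stood high in the livers on the high-fat diet alone and low in both other groups. Its probe set (17232394) measured 3.82, 4.40 and 4.13 in the regular-diet arrays, 6.35, 6.66 and 6.87 in the high-fat diet arrays, and 4.74, 3.82 and 5.06 in the extract arrays. Every high-fat diet array lay above every array of the other groups, and the regular-diet and extract arrays overlapped. The mean was 4.12 ± 0.29 (SD, n = 3) on the regular diet, 6.63 ± 0.26 (SD, n = 3) on the high-fat diet and 4.54 ± 0.65 (SD, n = 3) with extract. Themis thus stood above 37% of all genes on the regular diet, above 78.1% on the high-fat diet and above 46.1% with extract. Over all genes the means had a median of 4.74, and a signal below it is not told from background here. All 3 regular-diet arrays of Themis lay below that level, so background in them may make its diet difference too small. The choice of Themis by its high values on the high-fat diet may make the same difference too large. No bound on its size is read from these values. The extract mean lay below 4.74 as well, but extract replicate 3 did not. In RNA of whole liver, a change in the number of T cells and a change in the RNA per cell cannot be told apart. Nor can Themis RNA from another cell type be told from that of T cells.

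**Figure D1:**
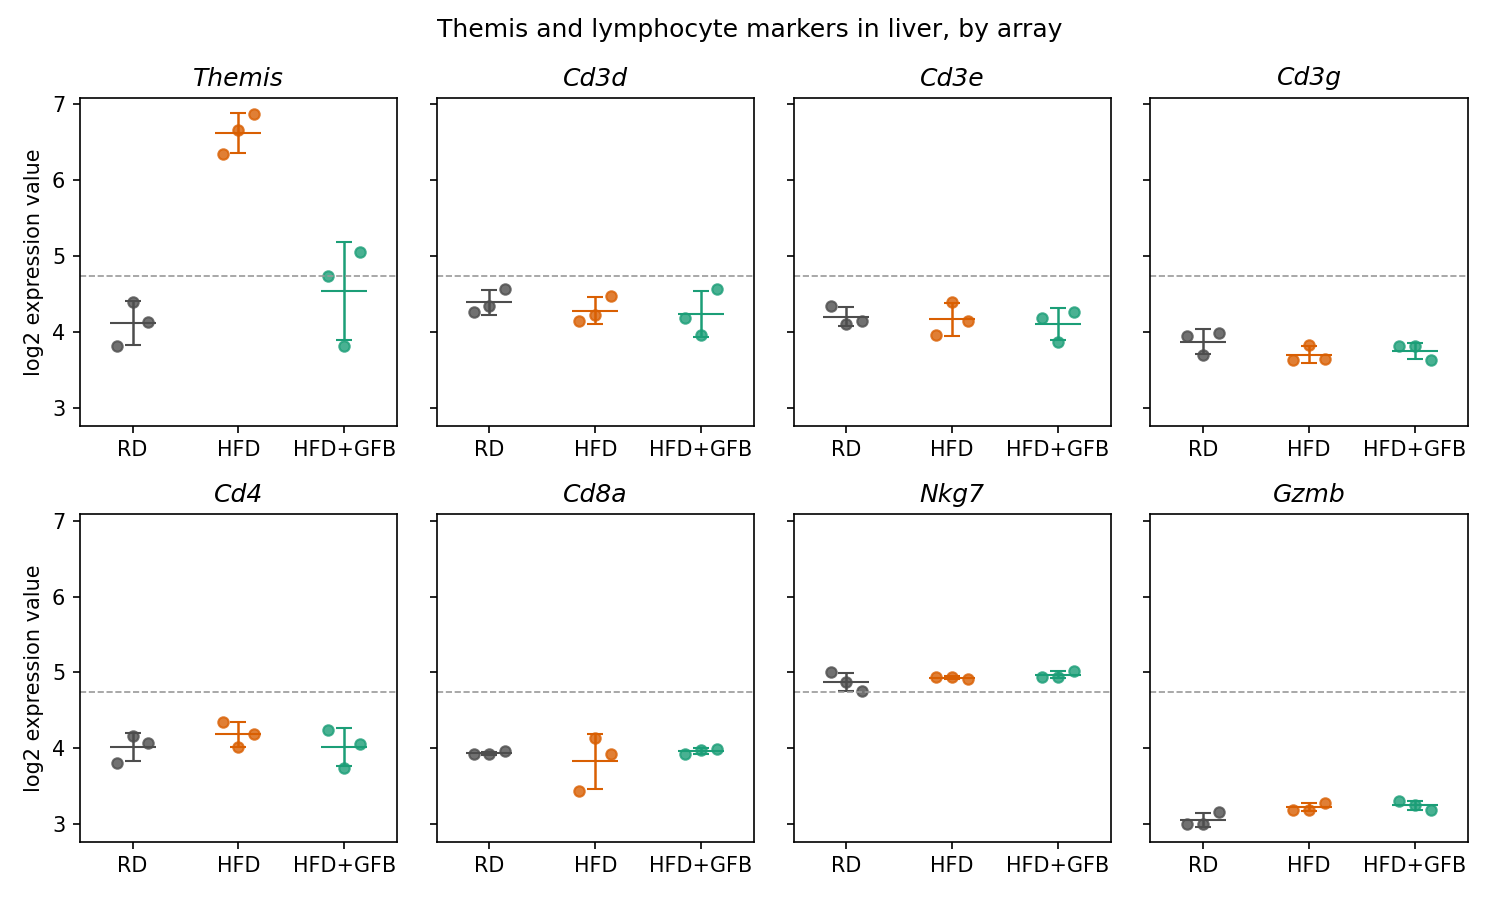
Log2 expression value (vertical axis) of Themis and 7 lymphocyte markers in each array of the regular diet (RD), high-fat diet (HFD) and high-fat diet with extract (HFD+GFB). Points are arrays, the horizontal bar is the mean and the whiskers are 1 SD (n = 3), and the dashed line is the median gene mean of 4.74. Themis reaches 6.35 to 6.87 on the high-fat diet, while the markers stay between 3.00 and 5.02 in every array.

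On the high-fat diet, Themis was 2.51 ± 0.29 (standard error) higher on the log2 scale than on the regular diet, a 5.69-fold difference, and 6 of the 22180 genes had a larger rise. With extract on the high-fat diet it was lower than on the high-fat diet alone by 4.25-fold (-2.09 ± 0.29, 95% interval -2.75 to -1.43), with lower values in all 3 extract arrays. No other gene had a more negative difference in that comparison. Cidec, which encodes a lipid droplet protein, was next at -1.95 ± 0.58, followed by the acute-phase gene Lcn2 at -1.79 ± 0.35 and the galectin 1 gene Lgals1 at -1.64 ± 0.27. In limma's test over all genes the difference of Themis did not pass (adjusted p = 0.146), and 6 genes had a smaller p. Of all genes, 0.00451% passed in this comparison, which is 1 gene, and in 5.27% the 3 extract arrays lay entirely below the 3 high-fat diet arrays. The adjusted p of Themis ranged from 0.0848 to 0.503 over the alternatives that kept all genes, and none passed. Among the genes with a mean above 4.74, which Themis joined only through its high-fat diet arrays, it was 0.0575. The difference was -1.73 without extract replicate 2. The high-fat diet arrays enter both differences, so the rise on the diet and the lower level with extract are not independent of each other. Themis was chosen for its high values in those arrays against the regular-diet arrays. Its p, interval and rank in the extract comparison may thus lean toward a fall and are no independent test. Against the regular diet, the extract group stood 0.42 ± 0.29 higher (95% interval -0.24 to 1.08), given as a description because of the same choice. Extract replicate 2 set much of that value, since the difference was 0.78 without it, 0.32 without extract replicate 1 and 0.16 without extract replicate 3. Leaving out regular-diet replicate 1 gave 0.28.

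The genes of the CD3 chains, which every T cell carries with its receptor, stood near background in all groups, with no difference of the size seen in Themis. Cd3e, the epsilon chain, measured 4.34, 4.11 and 4.15 on the regular diet, 3.96, 4.39 and 4.15 on the high-fat diet and 4.19, 3.87 and 4.26 with extract. The 3 groups overlapped. Cd3d, the delta chain, measured 4.26, 4.34 and 4.57 on the regular diet, 4.14, 4.22 and 4.48 on the high-fat diet and 4.18, 3.96 and 4.57 with extract. Its highest regular-diet and extract arrays were equal at 4.57. Cd3g, the gamma chain, measured 3.95, 3.69 and 3.98 on the regular diet, 3.63, 3.83 and 3.64 on the high-fat diet and 3.81, 3.82 and 3.63 with extract. Regular-diet replicate 2 lay among the high-fat diet arrays. In every array all 3 genes lay below 4.74, the median gene mean. The high-fat diet differed from the regular diet by -0.03 ± 0.14 for Cd3e, -0.11 ± 0.16 for Cd3d and -0.17 ± 0.10 for Cd3g, where Themis differed by 2.51. Their adjusted p in limma were 0.950, 0.830 and 0.530. The extract group differed from the high-fat diet by -0.06 ± 0.14 for Cd3e, -0.04 ± 0.16 for Cd3d and 0.06 ± 0.10 for Cd3g, with adjusted p from 0.955 to 0.979.

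The co-receptor genes were likewise dim and spread within groups as widely as between them. Cd4, which marks helper T cells, measured 3.81, 4.16 and 4.07 on the regular diet, 4.35, 4.02 and 4.19 on the high-fat diet and 4.24, 3.74 and 4.06 with extract. Its group means of 4.02, 4.19 and 4.01 had the order of Themis for the high-fat diet, but the arrays overlapped. The diet difference was 0.17 ± 0.15 (adjusted p = 0.674 in limma) and that of extract against the high-fat diet -0.18 ± 0.15 (adjusted p = 0.891). Cd8a, which marks killer T cells, measured 3.92, 3.92 and 3.96 on the regular diet, 3.43, 4.13 and 3.92 on the high-fat diet and 3.92, 3.98 and 3.99 with extract. High-fat diet replicates 1 and 2 were its lowest and highest arrays. The diet difference was -0.11 ± 0.15 (adjusted p = 0.821 in limma), or 0.09 without high-fat diet replicate 1. The extract difference was 0.14 ± 0.15 (adjusted p = 0.921), or -0.06 without that array.

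Of the cytotoxic granule genes, Nkg7 was the only marker above the median gene mean in every array, and it hardly varied. It measured 5.00, 4.87 and 4.76 on the regular diet, 4.94, 4.94 and 4.91 on the high-fat diet and 4.94, 4.94 and 5.02 with extract. The regular-diet arrays enclosed the high-fat diet arrays, with a diet difference of 0.06 ± 0.08 (adjusted p = 0.819 in limma) and an extract difference from the high-fat diet of 0.03 ± 0.08 (adjusted p = 0.963). Gzmb, which encodes granzyme B, measured 3.00, 3.00 and 3.16 on the regular diet, 3.19, 3.19 and 3.28 on the high-fat diet and 3.30, 3.25 and 3.19 with extract. All 6 high-fat-fed arrays lay above the 3 regular-diet arrays, at a level above only 18.3% of all genes. The difference from the regular diet was 0.17 ± 0.07 on the high-fat diet (adjusted p = 0.375 in limma) and 0.19 ± 0.07 with extract (adjusted p = 0.340). The regular-diet arrays enter both. The 3 arrays of the group lay entirely above those of the regular diet for 7.93% of all genes on the high-fat diet and for 7.00% with extract. Extract and high-fat diet differed by 0.03 ± 0.07 for Gzmb (adjusted p = 0.974).

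Over the 7 markers, 0 passed in limma for the high-fat against the regular diet, where 1.34% of all genes passed, and 1 had an unadjusted p under 0.05, as did 13.3% of all genes. Also 0 of 7 passed for extract against the high-fat diet, with 0 at an unadjusted p under 0.05 beside 5.98% of all genes. For extract against the regular diet 0 of 7 passed, beside 0.442% of all genes, with 1 at an unadjusted p under 0.05 beside 12.1%. The marker with the unadjusted p under 0.05 was Gzmb in both comparisons. The median difference of the 7 was -0.03, 0.03 and 0.00 in these 3 comparisons, where the median of all genes was 0.00 in each. The 95% intervals of the single markers reached from -0.47 to 0.50 for the diet and from -0.50 to 0.47 for extract on it, so differences inside these bounds are not resolved for every marker. Since 6 of the 7 lay below the median gene mean in every array, a difference in these genes may not have been detectable on this array. The other, Nkg7, lay only slightly above that level, with its lowest array at 4.76.

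**Figure D2:**
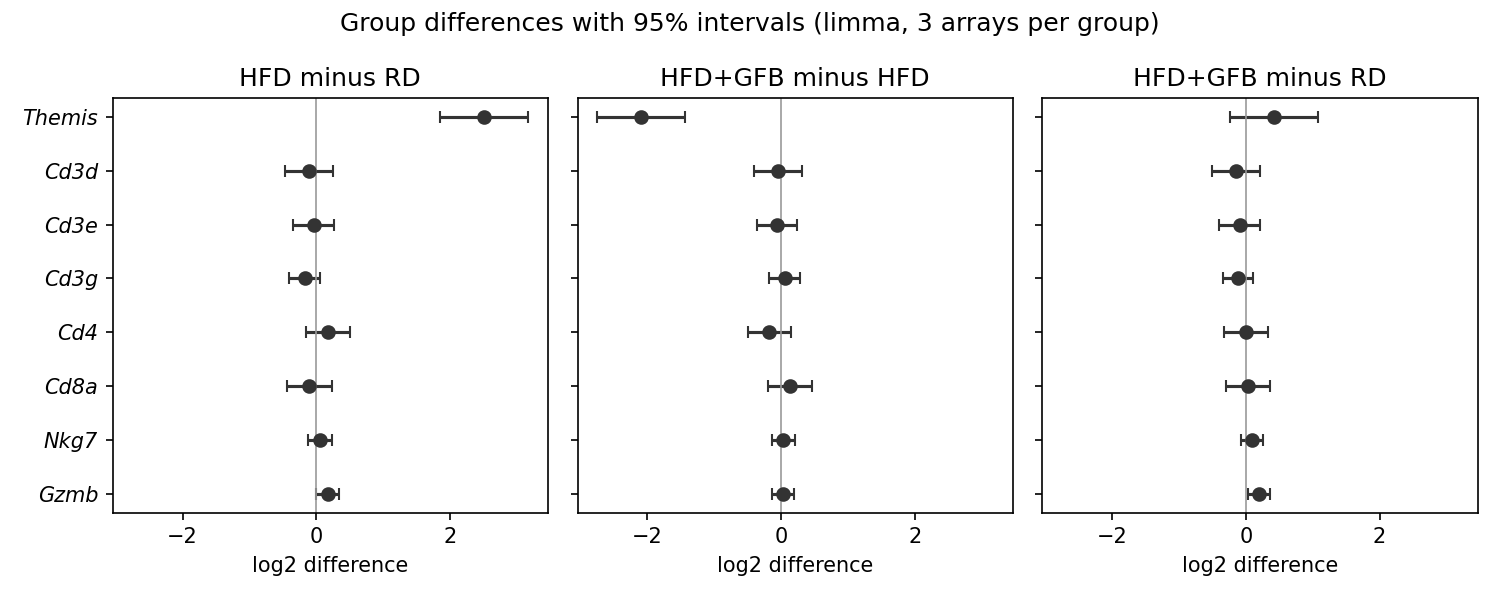
Log2 difference (horizontal axis) between groups for Themis and the 7 measured lymphocyte markers, one panel for each comparison, with 95% intervals from limma (n = 3 arrays per group). Themis lies at 2.51 for the diet and at -2.09 for extract on the diet, outside the range of -0.18 to 0.17 that holds the markers in both of those comparisons. The intervals of Themis are drawn as a description only, since it was chosen for its high values on the high-fat diet.

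Whether Themis and the markers deviated together inside the groups was examined with each array's deviation from its group mean, which leaves out the differences by which Themis was chosen. The mean of Cd3d, Cd3e, Cd3g, Cd4 and Cd8a was 4.05, 4.04 and 4.14 on the regular diet, 3.90, 4.12 and 4.08 on the high-fat diet and 4.07, 3.87 and 4.10 with extract. Extract replicate 2, the lowest extract array for Themis, was the lowest of all 9 arrays for Cd3d (3.96), Cd3e (3.87) and Cd4 (3.74), but for Cd3g it was the highest of its group (3.82). High-fat diet replicate 1, the lowest of its group for Themis, was the lowest of its group for Cd3d, Cd3e, Cd3g and Cd8a and the highest for Cd4. Over the 9 deviations, Pearson's r with Themis was 0.80 for Cd3d, with a two-sided exact permutation p of 0.0787 over the 216 arrangements within groups (adjusted p = 0.438 over the 7 markers). Spearman's rho for Cd3d was 0.85 (exact permutation p = 0.0324, adjusted p = 0.227). Without the 2 arrays whose Themis deviation lay farthest from the median, r for Cd3d was 0.51, and without the extract group it was 0.59. For Cd4 r was 0.60 and for Cd3e 0.53, with rho of 0.43 and 0.40. The exact permutation p for these r were 0.222 and 0.250 (adjusted p = 0.438 each) and for these rho 0.412 each (adjusted p = 0.577). Without the 2 farthest arrays r was 0.38 for Cd4 and 0.04 for Cd3e. Cd3g had r of -0.48 and rho of -0.58 (exact permutation p = 0.236 and 0.125, adjusted p = 0.438 each), with r of -0.32 without the 2 arrays. For Cd8a, Nkg7 and Gzmb r was 0.26, -0.05 and 0.02 and rho 0.30, 0.11 and -0.08, with exact permutation p from 0.389 to 0.935 and adjusted p from 0.557 to 0.935. Without the 2 arrays r was 0.46, -0.51 and 0.35. No marker passed after adjustment, and the number of arrays limits what such a test can show. The 5 CD3 and co-receptor genes stood below 4.74 in all 9 arrays.

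The other T cell genes were dim as well. Of 14 measured genes of a T cell list that includes the surface receptors Cd2, Cd5 and Cd28, 0 passed in limma for the diet, for extract on it or for extract against the regular diet, where 1.34%, 0.00451% and 0.442% of all genes passed. All 14 had a mean below 4.74, and the median difference was -0.04 for the diet and 0.00 for extract on it. At an unadjusted p under 0.05, 1 was higher on the high-fat diet than on the regular diet, 0 differed with extract on the diet, and 2 were lower with extract than on the regular diet, beside 13.3%, 5.98% and 12.1% of all genes. These counts are too near the shares of all genes to set the list apart. Ccr7, which encodes a receptor that guides T cells to lymph nodes, had a diet difference of 0.27 ± 0.10 (adjusted p = 0.300) and an extract difference of -0.06 ± 0.10. The costimulatory receptor genes Icos and Cd28 had diet differences of -0.17 ± 0.08 and -0.06 ± 0.10.

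The signalling genes around THEMIS were better expressed, since 16 of 20 had a mean above 4.74. In RNA of whole liver their values cannot be assigned to T cells. Of the 20, 0 passed in any comparison, where the shares of all genes would give less than 1 gene, with a median difference of 0.03 for the diet and -0.02 for extract on it. At an unadjusted p under 0.05, the high-fat diet had 2 higher genes and extract 1, both against the regular diet, and 0 differed with extract on the diet, beside 13.3%, 12.1% and 5.98% of all genes. Themis2, the paralog of Themis that is used in B cells and macrophages, measured 5.18, 5.12 and 5.23 on the regular diet, 5.43, 5.83 and 5.59 on the high-fat diet and 5.21, 5.64 and 5.46 with extract. Its high-fat diet arrays lay above the regular-diet arrays, but the difference of 0.44 ± 0.13 did not pass (adjusted p = 0.160 in limma), nor did that of -0.18 ± 0.13 with extract on the diet (adjusted p = 0.873). Grap2, an adaptor of the GRB2 family, stood at 0.31 ± 0.12 for the diet (adjusted p = 0.302) and Csk, the kinase that restrains LCK, at -0.18 ± 0.08 (adjusted p = 0.388). The mean of Grap2 was 3.97, below 4.74, where a signal is not told from background. Grb2, whose product binds THEMIS, differed by 0.08 with the diet and by -0.05 with extract on it. Ptpn6, the SHP-1 phosphatase gene, differed by -0.05 and -0.06.

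The other leukocytes that a liver sample can hold were covered by 4 lists. Of 16 cytotoxic and natural killer genes, 9 B cell genes, 10 genes of all leukocytes and 12 Kupffer cell and macrophage genes, 0 passed in any of the 3 comparisons, beside 1.34% of all genes for the diet, 0.00451% for extract on it and 0.442% for extract against the regular diet. At an unadjusted p under 0.05, 1 cytotoxic gene was higher with extract than on the regular diet and 1 gene of all leukocytes was lower with extract than on the high-fat diet, beside 12.1% and 5.98% of all genes, and 0 differed with the diet, beside 13.3%. Median diet differences were 0.00, 0.06, 0.07 and 0.01 for these lists and median extract differences on the diet 0.04, -0.01, -0.10 and -0.03. Only 3 of the 16 cytotoxic genes, 1 of the 9 B cell genes and 6 of the 10 leukocyte genes had a mean above 4.74. All 12 Kupffer cell and macrophage genes did. A difference in the dimmer genes may not have been detectable. Of the genes named next, Ncr1, Klrd1, Cd79b, Cd79a, Cr2, Cd48 and Laptm5 had means below 4.74. Ncr1, a natural killer receptor gene, differed by 0.12 ± 0.14 with the diet, Tbx21, the T-bet gene, by -0.14 ± 0.09 and Klrd1, the CD94 gene, by 0.11 ± 0.08. The B cell receptor genes Cd79b and Cd79a differed by -0.12 ± 0.12 and 0.13 ± 0.07, and the complement receptor gene Cr2 by -0.08 ± 0.12. The leukocyte gene Cd48 differed by 0.13 ± 0.12 with the diet and by -0.30 ± 0.12 with extract on it (adjusted p = 0.802 in limma). Laptm5 and Cd53, found in most leukocytes, differed by 0.27 ± 0.16 and 0.20 ± 0.17 with the diet and by -0.25 ± 0.16 and -0.26 ± 0.17 with extract on it. Cd68, Lyz2 and Cd163, which mark macrophages, differed by 0.38 ± 0.18, 0.20 ± 0.14 and -0.20 ± 0.15 with the diet.

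The mean of the hepatocyte list was lowest in the high-fat diet arrays, where Themis was highest. It lay between 11.79 and 11.86 in the regular-diet arrays, between 11.60 and 11.71 in the high-fat diet arrays and between 11.78 and 11.89 in the extract arrays. Its median difference was -0.01 for the diet and 0.14 for extract on it, and 5 of the 10 measured genes were higher and 5 lower on the high-fat diet. Fgb, Ttr, Apoa1, Serpina1e and Alb, which encode plasma proteins, had diet differences of 0.16, 0.14, 0.10, 0.10 and 0.01. Ahsg, of another plasma protein, differed by -0.03, so the lower mean rests on a few genes. With extract on the diet 9 of the 10 genes were higher, Serpina1e by the most (0.57). Extract against the regular diet gave 0.66 for Serpina1e, but -0.32 for Cps1 and -0.52 for Ass1, with 6 genes higher and 4 lower. Over the 10 genes, 1 fell on the high-fat diet, beside 1.34% of all genes, and 0 passed in the other comparisons. At an unadjusted p under 0.05, 4 were lower for the diet, 1 was higher for extract on the diet, and 3 were higher and 2 lower for extract against the regular diet, beside 13.3%, 5.98% and 12.1% of all genes. The gene that fell was Cps1, of the urea cycle (-0.66 ± 0.10, adjusted p = 0.0224 in limma), with an extract difference on the diet of 0.34 ± 0.10 (adjusted p = 0.718). Hpd, of tyrosine breakdown, had a diet difference of -0.34 ± 0.08 (adjusted p = 0.0806) and Ass1, of the urea cycle, of -0.75 ± 0.19 (adjusted p = 0.119). The probe set of Ass1 had a mean of only 5.52, where the other genes of the list had means from 11.17 to 13.53. Tat, also of tyrosine breakdown, differed by -0.47. The lymphocyte markers averaged 4.01 to 4.09 over the regular-diet arrays, 3.95 to 4.10 over the high-fat diet arrays and 3.94 to 4.10 over the extract arrays. The list of all leukocytes averaged 5.00 to 5.19, 5.05 to 5.29 and 4.95 to 5.18 in the same order. The part of these hepatocyte genes in the values of Themis was not tested.

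**Figure D3:**
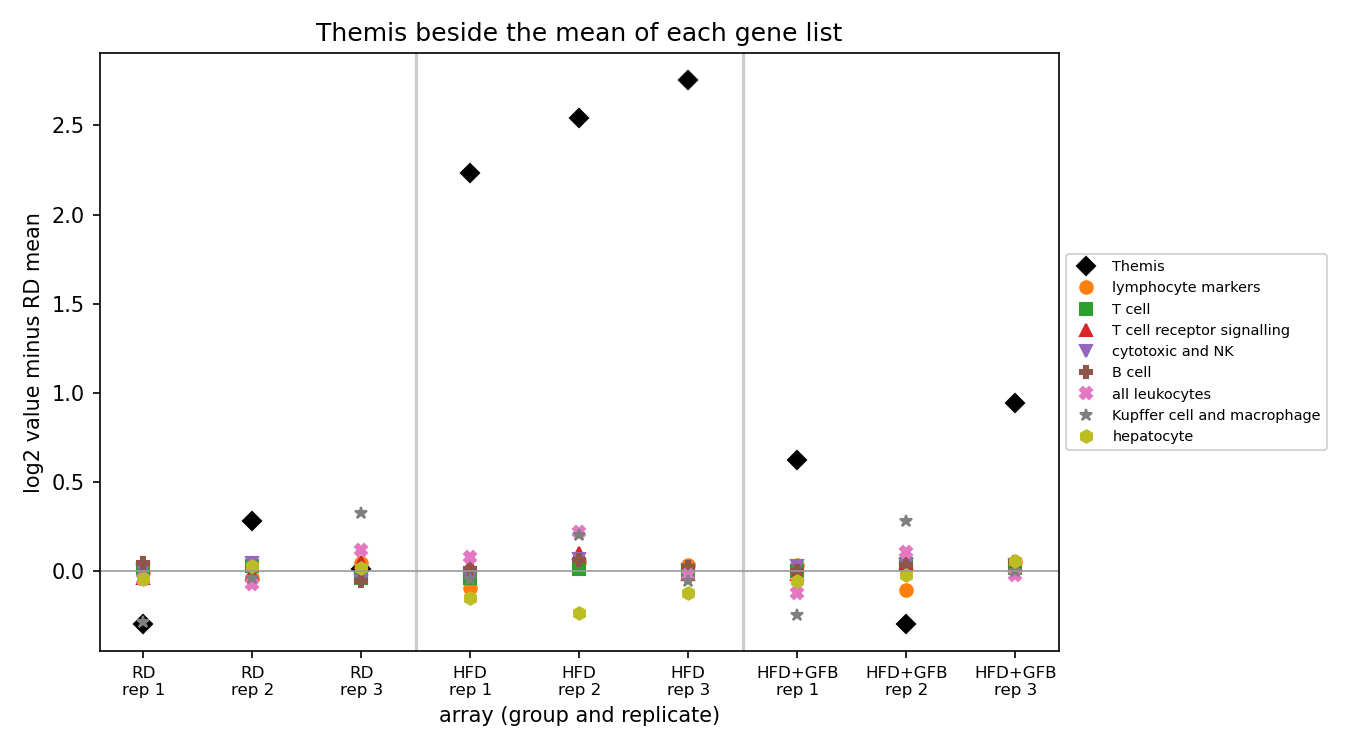
Themis and the mean of each gene list in every array, as log2 value minus the mean of the regular-diet arrays (vertical axis), with the arrays by group and replicate on the horizontal axis. Themis stands far above 0 in the 3 high-fat diet arrays, while the list means stay near 0 beside it in all 9 arrays. The Kupffer cell and macrophage mean spreads within groups, from 6.59 to 7.20 in the regular-diet arrays. The hepatocyte mean is lowest in the high-fat diet arrays (11.60 to 11.71).

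Genes with a pattern like that of Themis were sought among all genes with a mean above 4.74, by Pearson's r over the 9 arrays. The 5 highest were Lgals1 (0.98), which encodes galectin 1, Parp12 (0.98), an interferon-induced gene of the PARP family, Wwtr1 (0.96), the transcriptional coactivator TAZ, Glul (0.95), glutamine synthetase, and Dglucy (0.95), D-glutamate cyclase. These r describe 9 arrays that share 3 groups and carry no p, since the genes were picked for them out of all genes and the arrays separate by group. None of the 5 is on the T cell lists. However, all 14 measured genes of the T cell list and the CD3 and co-receptor genes had means below 4.74. They could not have been picked, so their absence says nothing about them. Lgals1 measured 6.49, 6.88 and 6.52 on the regular diet, 8.32, 9.01 and 9.24 on the high-fat diet and 7.45, 6.72 and 7.48 with extract. Its arrays had the same order as those of Themis inside each of the 3 groups. Parp12 measured 8.09, 8.11 and 8.01 on the regular diet, 8.49, 8.59 and 8.56 on the high-fat diet and 8.16, 8.03 and 8.29 with extract. Glul measured 11.05, 11.11 and 10.97, then 11.38, 11.29 and 11.42, then 11.05, 10.99 and 11.17 in the same groups. In each of these genes the high-fat diet arrays lay above all others, by less than in Themis. The differences of extract from the high-fat diet were -1.64 for Lgals1, -0.39 for Parp12, -0.39 for Wwtr1, -0.29 for Glul and -0.50 for Dglucy, and none passed (adjusted p from 0.242 to 0.606 in limma). Their differences of the high-fat from the regular diet were 2.23, 0.48, 0.38, 0.32 and 0.78, of which Lgals1 (adjusted p = 0.0102), Dglucy (adjusted p = 0.0106) and Parp12 (adjusted p = 0.0287) passed in limma. Since they were picked for their likeness to Themis, these p are no independent support. By the same measure the lymphocyte markers ran from -0.57 for Cd3g to 0.58 for Cd4, and 1629 genes had a higher value than Cd4.

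**Figure D4:**
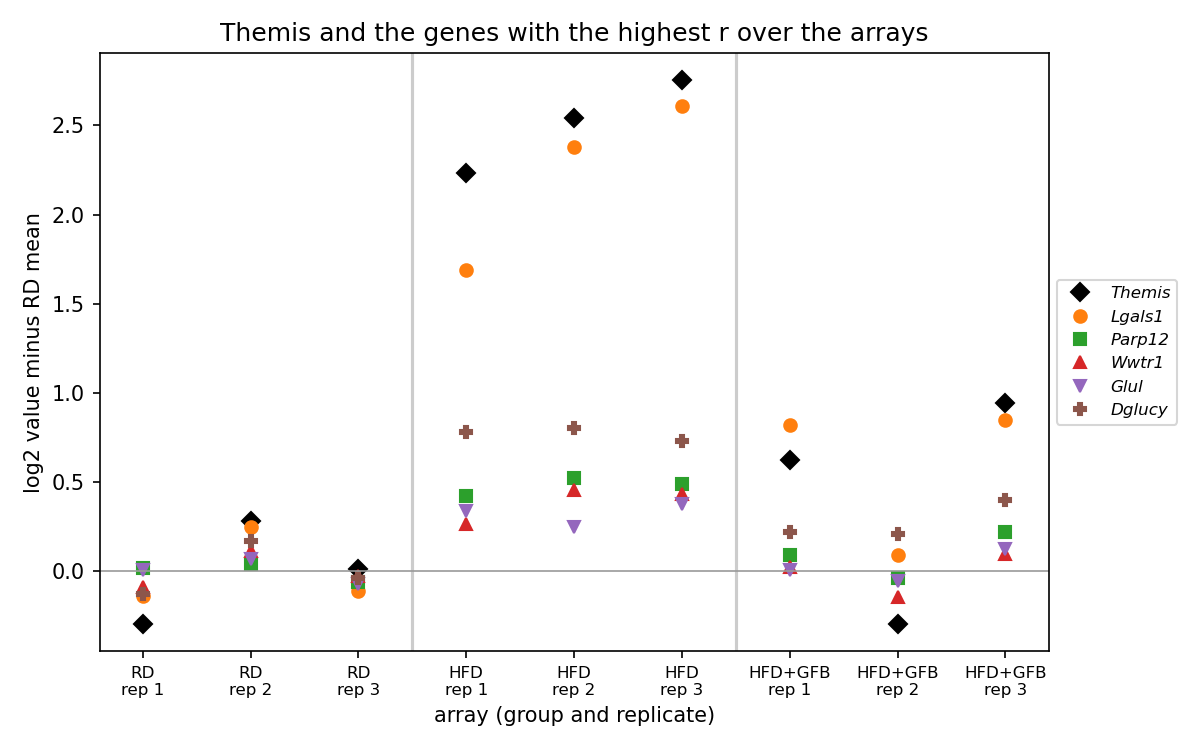
Themis and the 5 genes with the highest Pearson's r to it, as log2 value minus the mean of the regular-diet arrays (vertical axis), for each of the 9 arrays (horizontal axis). Points are single arrays. Lgals1 is close to Themis in all groups, with an extract difference of -1.64 against -2.09, and the other genes follow at a smaller size.

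The protein-coding neighbours of Themis on the chromosome, taken from RefSeq by order alone, had no difference of the size seen in Themis. Ptprk, a receptor phosphatase gene on one side, was well above background with means of 8.27 on the regular diet, 8.33 on the high-fat diet and 8.52 with extract. It differed by 0.06 ± 0.10 with the diet (adjusted p = 0.860 in limma) and by 0.18 ± 0.10 with extract on it (adjusted p = 0.852). On the other side, 2310057J18Rik was dim, with means of 2.00, 2.19 and 2.12. These means had the order of those of Themis, but lay below 4.74, where a signal is not told from background. This gene differed by 0.19 ± 0.10 with the diet (adjusted p = 0.468) and by -0.07 ± 0.10 with extract on it (adjusted p = 0.936). The next genes outward, Lama2 beyond Ptprk and Soga3 on the other side, had group means below 4.74. Lama2 differed by 0.04 ± 0.06 with the diet and by -0.03 ± 0.06 with extract on it. Soga3 differed by 0.03 ± 0.13 and -0.08 ± 0.13.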

How the data were processed

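Values were deposited as log2 expression per probe set. The authors made them with oligo (R) by RMA, per the submitters' processing notes. RMA corrects for background, forces the arrays to the same distribution and combines the probes of a set, which removes a shift common to most genes while dim genes keep a value near background. No version or genome build is given in the sources used here. Of 41345 probe sets, 23521 with 1 symbol were used, and the one with the highest mean stood for each of 22180 genes. Symbols equalled those of RefSeq by gene identifier for 23328 probe sets, and 193 had no match.

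A mean for each of the 3 groups was fitted to all 9 arrays with limma 3.58.1 in R 4.3.3 (6 residual and 3.28 prior degrees of freedom), and a gene passed at a two-sided p under 0.05 after Benjamini-Hochberg adjustment over all genes. With 3 arrays against 3, an exact permutation test cannot go below p = 0.1.

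The members and lists were chosen with earlier results of these data known. Named were the members, up to 3 genes of each of 7 lists with the smallest p of the moderated F test, genes of a list that passed, and the 5 genes most like Themis among those above the median gene mean, without predicted genes. Cidec, Lcn2, Grb2, Ptpn6, the hepatocyte genes other than Cps1, Hpd and Ass1, and the neighbours of Themis were named after their values were seen. The correlation of Themis with each marker was planned over the 6 arrays on the high-fat diet. After the data were seen it was replaced by one of deviations from group means over 9 arrays, since Themis separates those 6 arrays by group. Same-numbered arrays did not deviate together (1 of 9 pairs had r over 0.1), so the numbers were not taken to pair them. The alternatives changed moderation, the filter on dim genes, the probe set rule, normalization, array weights, the replicate block, the arrays in the fit and the threshold, and left out each array in turn.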

Additional observations from a re-analysis of the deposited data

How the results depend on the processing

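No setting made a lymphocyte marker pass in any of the 3 comparisons, over 18 alternatives each, although only Nkg7 remained among the genes above the median gene mean. Themis kept its direction in every alternative, with a diet difference of 2.36 to 2.65, an extract difference on the diet of -2.35 to -1.73 and a difference of extract from the regular diet of 0.16 to 0.78, and its extract difference did not pass in any (adjusted p = 0.503 with the 6 arrays compared alone, and 0.0575 among the brighter genes, which it joins only through its high-fat diet arrays). With the replicate number as a block these were 2.51, -2.09 (adjusted p = 0.228) and 0.42, and the block changed no other call of a member. Small marker differences turned sign only when an array was left out: with the diet, Cd3e spanned -0.15 to 0.07, Cd8a -0.26 to 0.09 and Nkg7 0.00 to 0.12. With extract on the diet, Cd3d spanned -0.21 to 0.10, Cd3e -0.16 to 0.06, Cd8a -0.06 to 0.29 and Gzmb 0.00 to 0.06, and with extract against the regular diet Cd3e spanned -0.17 to 0.02 and Cd4 -0.11 to 0.13. The number of all genes that passed for the diet was 297, against 597 among the brighter genes, 15 with 6 arrays, 611 at an adjusted p under 0.10 and 58 to 452 with an array left out. For extract on the diet it was 1, against 4, 0, 4 and 0 to 3, with 3 under array weights and 0 with the arrays shifted to one median. For extract against the regular diet it was 98, against 232, 34, 216 and 2 to 267. The cause was not tested. The planned pooled correlation with Themis was not run, since its values separate by group. Within groups, a choice made after seeing the data, no marker passed under any of 13 alternatives. With an array left out r spanned 0.66 to 0.89 for Cd3d, 0.03 to 0.75 for Cd3e, -0.15 to 0.51 for Cd8a, -0.33 to 0.44 for Nkg7 and -0.13 to 0.35 for Gzmb. For Gzmb it was -0.06 after quantile normalization and -0.12 with one median, and for Nkg7 0.47 in the 6 arrays on the high-fat diet. Signal near background limits 6 of the 7 markers. The other, Nkg7, lay only slightly above the median gene mean, with values from 4.76 to 5.02.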
